A study of Parhyale hawaiensis with 42 samples.

Results

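Between stage 14 and stages 21 to 23 the embryo of the amphipod crustacean *Parhyale hawaiensis* passes from germ band extension to the formation of limb buds and organs. The mRNA libraries of these stages, 2 for S14 and 2 for S21–23, are 4 of the 42 libraries of the series, and they were taken by their stage labels. Both S17 libraries were used as the point between. All 14 mRNA libraries, 2 at each of 7 time-points, were used for the spread between replicates. The time-points carry the paper's names, and the libraries called S5–6 and S7–11 here are labelled stage 6 and stages 8 to 11. Every library came from pooled, staged whole embryos of a wild-type laboratory strain, with no treatment. The S14 and S17 embryos were staged precisely, while S21–23 spans a wide window, and poly-A selected, stranded mRNA was sequenced from each pool.

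In arthropods, the trunk of the early embryo is laid down as a germ band, a sheet of cells that grows and is divided into segments. The amphipod germ band forms in ordered rows of cells, and limb buds, muscle, gut and nervous system follow from it. An mRNA level at any stage is the balance of its transcription and its decay. In pools of whole embryos a change in the number of cells of a type and a change in RNA per cell cannot be told apart.

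The measured units are transcripts assembled with Trinity from the reads of the study, and Trinity genes, the groups of transcripts that the assembler joined. The tables list 53604 transcripts of 31153 Trinity genes by identifier, length and value, and pair no identifier with a gene name or sequence. They carry no mark of coding potential, so coding and any non-coding transcripts were analysed together. The paper reports somewhat fewer protein-coding transcripts, from nearly as many Trinity genes, and treats putative long non-coding RNAs separately. Without gene names, tissue markers and functional gene groups could not be examined, and the 4 transcripts named here carry their assembly identifiers. The expected counts summed to 64892232 and 55092909 in the S14 libraries, 52927026 and 59408103 at S17, and 53379953 and 44811730 at S21–23. Values called normalized counts are expected counts divided by the size factor of the library, and TPM is the abundance of a transcript relative to its library after division by its length. Log2 fold changes come from a fit with another scaling, so they depart slightly from ratios of normalized counts. No label says whether the replicates came from separate broods, so the p-values measure the spread between these libraries only.

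The RNA population differed between S14 and S21–23. Of 29223 Trinity genes with at least 10 normalized counts on average in at least 1 time-point, 1212 rose (4.15% of all tested) and 1056 fell (3.61%). Here and below, a feature is said to have risen or fallen where its log2 fold change reached 1.5 in either direction with an adjusted p (edgeR) not above 0.001. The median log2 fold change of all tested genes was -0.03. Genes that rose did so by a median of 3.17 on the log2 scale, with quartiles of 2.20 and 4.85, and genes that fell did so by a median of -2.09, with quartiles of -2.82 and -1.71. Changes of at least 3 on this scale made up 53.1% of the rises and 21.0% of the falls. A gene that rose had a median level of 20.5 normalized counts at S14 and 220.6 at S21–23, and one that fell had 355.8 and 88.9. These lists were chosen by the change itself, and their sizes are given as a description.

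The rises made up 53.4% of the called genes here and 63.4% with the Wald test of DESeq2, which called 1532 rises and 885 falls. The numbers of rising and falling genes stayed within 1.5 times of these under every other scaling, filter and omitted library at the same threshold, between 958 and 1367 rises and between 808 and 1134 falls.

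**Figure D1:**
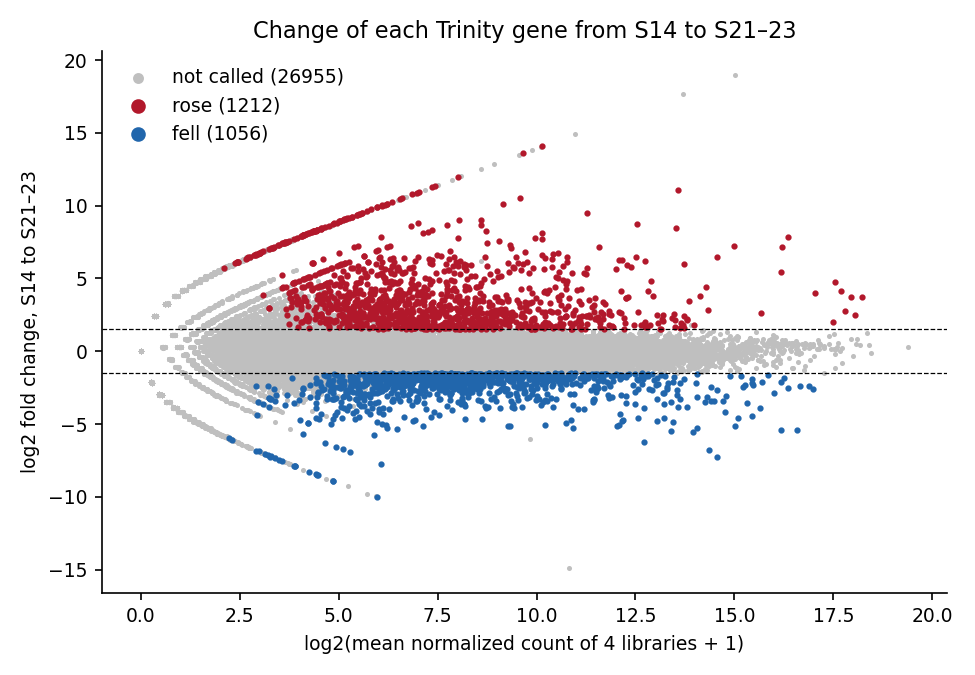
Log2 fold change of each tested Trinity gene from S14 to S21–23 against its mean normalized count over the 4 libraries. Red points are the 1212 genes that rose and blue points the 1056 that fell, and dashed lines mark a log2 fold change of 1.5 in either direction. The curved lines of points at the edges are genes with 0 counts at 1 of the time-points.

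Among transcripts that were counted in every library of both time-points, the largest rise was that of TRINITY_GG_99803_c0_g1_i10, 3105 bases long and the only listed transcript of its gene. It had 5.07 and 6.77 normalized counts in the S14 libraries, 139.4 and 147.4 at S17, and 4985 and 4799 at S21–23. The 3 pairs of values did not overlap, and the rise continued through S17. Its log2 fold change from S14 to S21–23 was 9.59 ± 0.35 (SE, n = 2 libraries against 2, adjusted p = 5.4e-07, edgeR). The steps on either side of S17 were 4.52 ± 0.28 and 5.08 ± 0.28, and the difference between them missed the threshold (0.56 ± 0.45, adjusted p = 0.69). The transcript had been present before, at 163.3 and 174.1 normalized counts at S1–4, and it fell back to 596.0 and 615.4 at S24–30. S14 was therefore its lowest time-point of 7 and S21–23 its highest.

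The most abundant transcript that rose was TRINITY_GG_69326_c0_g1_i1, 609 bases long and the only one of its gene. Its TPM was 2011 and 1945 at S14, 6063 and 6044 at S17, and 23240 and 21339 at S21–23. On the TPM scale it thus made up 0.20% and 0.19% of the S14 libraries and 2.32% and 2.13% of the S21–23 libraries. It rose by 3.80 ± 0.09 on the log2 scale (SE, n = 2 against 2, adjusted p = 4.8e-08, edgeR), in steps of 2.04 ± 0.08 to S17 and 1.77 ± 0.08 from there. From S1–4, with 170.3 and 175.5 TPM, to S21–23 each time-point was higher than the one before. At S24–30 it was lower again, with 11134 and 9715 TPM.

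Among transcripts that were counted in every library of S14 and S21–23, the largest fall was that of TRINITY_GG_68764_c0_g1_i1, 2029 bases long. It had 45767 and 47172 normalized counts at S14, 1980 and 2174 at S17, and 372.0 and 305.8 at S21–23. Its fall was larger before S17 than after it, with a log2 fold change of -4.55 ± 0.27 against -2.63 ± 0.25. However, the difference between the steps (1.92 ± 0.42, adjusted p = 0.031, edgeR) did not pass the threshold of 0.001. The whole change was -7.17 ± 0.30 (SE, n = 2 against 2, adjusted p = 1.3e-06, edgeR). The transcript was nearly absent at S1–4, with 0 and 0.88 normalized counts, climbed to 19883 and 22516 at S7–11, and stood at 13.6 and 12.0 at S24–30.

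The most abundant transcript that fell was TRINITY_GG_48163_c0_g1_i1, 1268 bases long, with a TPM of 2534 and 2527 at S14, 510.6 and 519.0 at S17, and 49.6 and 51.7 at S21–23. Its fall was larger after S17 on the log2 scale. The log2 fold change was -1.87 ± 0.05 from S14 to S17 and -3.46 ± 0.06 from S17 to S21–23, and the steps differed by -1.58 ± 0.09 (adjusted p = 5.7e-05, edgeR). Over both steps it fell by 5.33 on the log2 scale (SE 0.06, adjusted p = 1.9e-09). Replicates of S14, S17 and S21–23 differed by at most 4.11% in TPM, far less than either step. Each of the 4 named transcripts was the only transcript listed for its gene, so the fit over genes used the same counts. The changes in that fit lay within 0.10 of these values on the log2 scale, and they are no separate check.

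**Figure D2:**
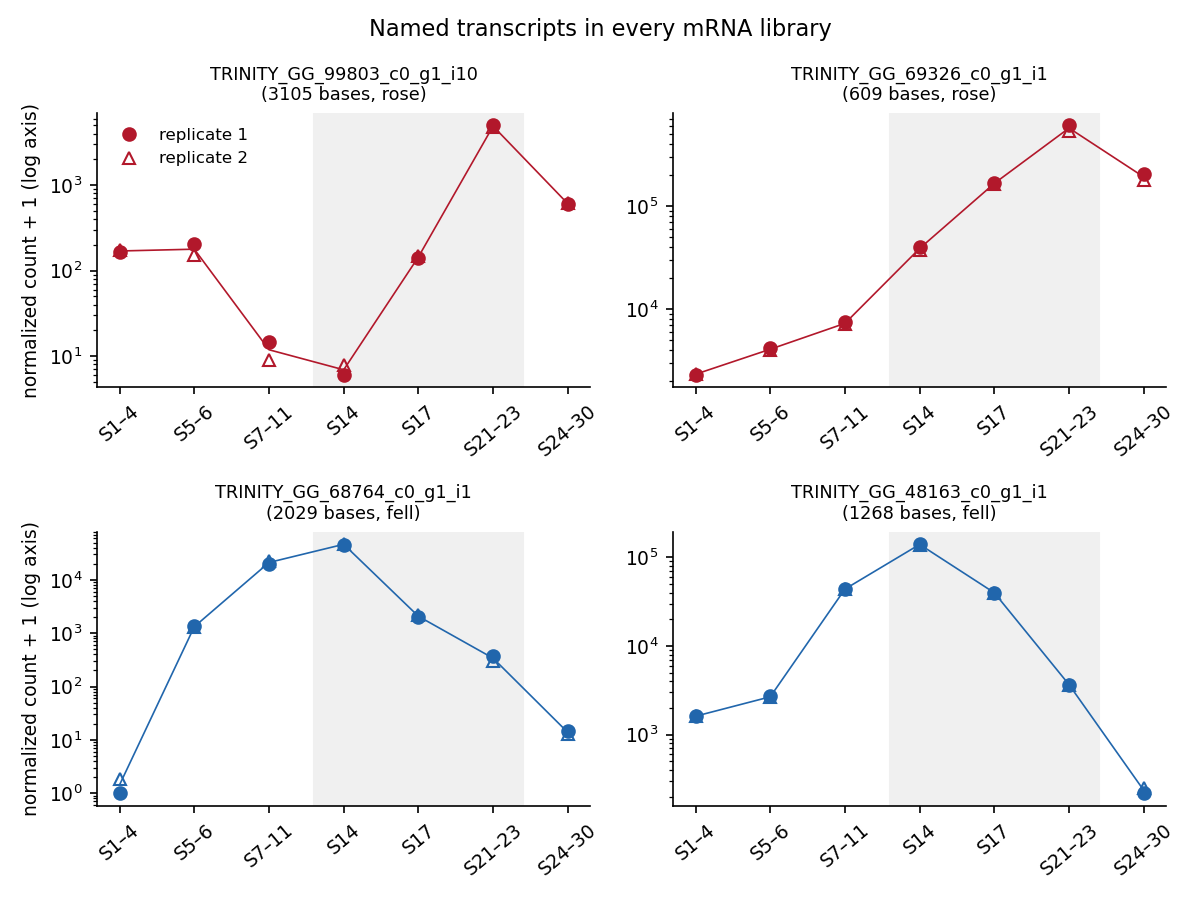
Normalized counts plus 1 (log axis) of the 4 named transcripts in each of the 14 mRNA libraries, with the 2 replicates of a time-point as a filled circle and an open triangle and a line through their means. Grey shading covers S14, S17 and S21–23. Both transcripts that rose were highest at S21–23, and both that fell were highest at S14.

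The 10 most abundant transcripts that rose, at 989 to 22290 mean TPM at S21–23, were ranked by their level at that time-point, which favours a peak there. All 10 were highest at S21–23 of the 7 time-points and lower again at S24–30, whereas of all 407 transcripts that rose 111 (27.3%) were highest at S21–23 and 197 (48.4%) at S24–30. All 10 had their S17 mean between those of S14 and S21–23. Their lengths were 483 to 1739 bases, and their log2 fold changes 2.57 to 7.91. A transcript of 969 bases went from 509.1 and 449.3 TPM at S14 to 8148 and 7391 at S21–23, and back to 810.8 and 779.3 at S24–30. One of 1222 bases had 972.1 and 982.2 TPM at S14, 5925 and 5518 at S21–23 and 263.0 and 257.9 at S24–30, and before S7–11 it stayed below 1 TPM. One of 1461 bases had fallen from 45.7 and 45.2 TPM at S1–4 to 0.81 and 0.59 at S7–11 before it reached 1690 and 1622 at S21–23. In all 10, S21–23 replicate 1 was the higher of the pair, by 4.14% to 12.9%, which is small beside their changes.

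Rises by a large fold included transcripts that were still far from their highest level. A transcript of 6130 bases had 0.72 and 1.69 normalized counts at S14, 802.1 and 722.8 at S21–23, and 31204 and 31732 at S24–30. A Trinity gene of 10 listed transcripts had the largest rise of all genes counted in every S14 and S21–23 library. Its sum was 12.0 and 7.88 normalized counts at S14, 49.3 and 38.3 at S17, 24904 and 23886 at S21–23 and 194077 and 194857 at S24–30, a log2 fold change of 11.1 ± 0.13 from S14 to S21–23 (SE, adjusted p = 1.4e-16, edgeR). Its largest rise between adjacent time-points on the log2 scale was that from S17 to S21–23.

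The 10 most abundant transcripts that fell, at 804 to 2531 mean TPM at S14, had log2 fold changes of -5.41 to -1.78. They were highest at S14 in 7 cases, at S7–11 in 2 and at S24–30 in 1. In 9 of the 10 the level dropped further from S21–23 to S24–30. A transcript of 2010 bases had 1727 TPM in both S14 libraries, 1011 and 994.6 at S17, 283.3 and 281.2 at S21–23 and 4.86 and 3.96 at S24–30. One of 1194 bases was at 1769 and 1768 TPM at S7–11, 1623 and 1592 at S14 and 64.2 and 61.7 at S21–23. The exception was a transcript of 976 bases, which fell from 804.7 and 803.2 TPM at S14 to 19.9 and 16.0 at S21–23 and stood at 1466 and 1344 at S24–30.

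The called transcripts together took up a changing share of the library. The 407 transcripts that rose held 0.83% and 0.82% of TPM in the S14 libraries, 2.81% and 2.75% at S17, and 7.17% and 6.64% at S21–23. The 554 that fell held 4.07% and 4.11% at S14, 1.40% and 1.42% at S17, and 0.46% in both S21–23 libraries. Since these transcripts were chosen by the change, the shares describe its size and are no test. The library as a whole became more concentrated. The 10 most abundant transcripts of each library held 9.56% and 9.53% of TPM at S14, 12.1% and 11.9% at S17, and 13.7% and 13.1% at S21–23. The number of transcripts that together held 50% of TPM was 172 and 176 at S14, 111 and 114 at S17 and 107 and 116 at S21–23, so it was lower at S17 than at S14 and overlapped between S17 and S21–23. Transcripts of at least 1 TPM numbered 21998 and 22099 at S14, 19465 and 19600 at S17, and 20640 and 21467 at S21–23.

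The S17 libraries lay between the 2 ends for most genes that changed. Across all tested genes, Spearman's rho was 0.97 between S14 and S17 libraries, 0.96 between S17 and S21–23 libraries, and 0.93 to 0.94 between S14 and S21–23 libraries, against 0.98 to 0.99 between replicates. These rho values are across 29223 genes, which are not independent, and they share the depth and composition of each library. From S14 to S17, 308 genes rose (1.05% of those tested) and 343 fell (1.17%). Which direction had more calls depended on scaling and tool, with 446 rising and 307 falling by DESeq2, 365 and 244 with its size factors in edgeR, 402 and 320 in a fit of the 6 libraries of S14, S17 and S21–23, and 241 and 623 with total counts. From S17 to S21–23, 706 rose (2.42%) and 273 fell (0.934%). Both comparisons use the S17 libraries, so their lists were not compared. The steps span different numbers of stages and were not divided by time, so neither their sizes nor their difference is a rate. The difference between the steps was tested directly, and 682 genes passed, 361 with the later step higher (1.24%) and 321 with the later step lower (1.10%). This count was 418 without S17 replicate 1 and 389 without S17 replicate 2.

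For the genes that rose, the median step was 1.14 on the log2 scale from S14 to S17 and 1.96 from S17 to S21–23. For those that fell it was -1.19 and -0.99. Expressed as the part of the log2 change present at S17, the median was 39.3% for genes that rose, with quartiles of 14.8% and 59.4%, and 52.6% for genes that fell, with quartiles of 37.3% and 70.8%. The S17 level lay below that of S14 in 165 of the 1212 genes that rose (13.6%), and above that of S21–23 in 31. Of the 1056 genes that fell, 48 were higher at S17 than at S14 and 48 lower at S17 than at S21–23. The S14 libraries enter both parts of this ratio and the time between stages enters neither, so it is given as a description.

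**Figure D3:**
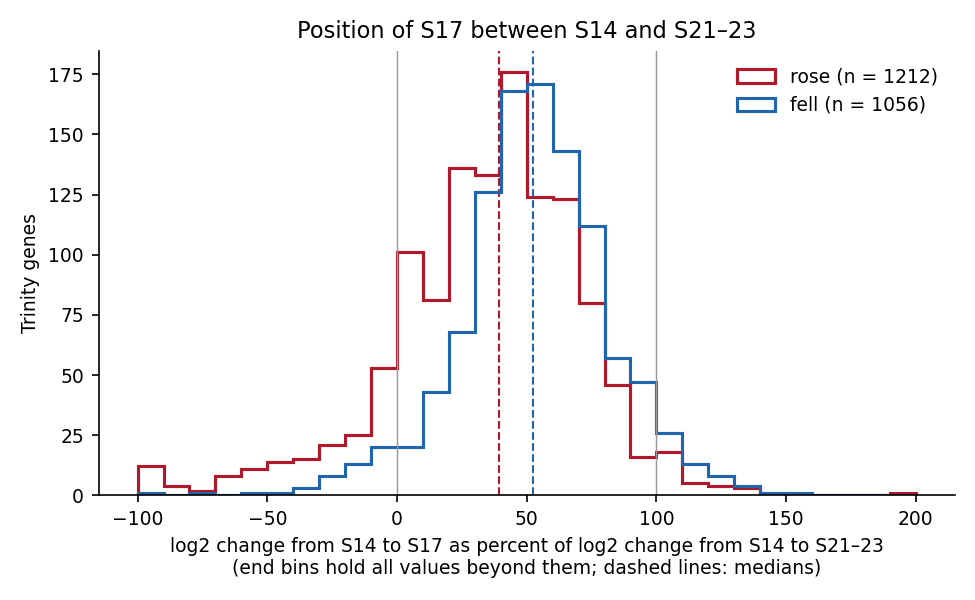
Trinity genes by the log2 change from S14 to S17 as a percent of that from S14 to S21–23, in bins of 10 percent, for the 1212 genes that rose (red) and the 1056 that fell (blue). Grey lines mark 0 (the S14 level) and 100 (the S21–23 level), and dashed lines mark the medians of 39.3% and 52.6%.

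The same lists were followed between time-points other than S14 and S21–23. The libraries of those time-points had a part in the filter, the scaling and the spread behind the lists, but their counts were not part of the difference that chose them. From S17 to S24–30, the genes that rose had a median log2 fold change of 3.01, and 85.6% of them were higher at S24–30, beside a median of 0.18 and 56.3% of all tested genes. Of these genes 824 (68.0%) passed as rising in that comparison and 49 as falling, where 14.3% of all tested genes passed as rising and 6.42% as falling. From S7–11 to S17 their median was 1.82 with 78.8% above 0, beside -0.29 and 34.7% of all tested genes, and 499 passed as rising (41.2%) and 45 as falling (all tested genes 4.97% and 9.39%). The genes that fell had medians of -1.33 from S17 to S24–30, with 458 passing as falling (43.4%), and of -1.58 from S7–11 to S17, with 539 passing as falling (51.0%). Among the genes that fell, 94 passed as rising from S17 to S24–30 (8.90%) and 61 from S7–11 to S17 (5.78%, against 4.97% of all tested genes). With lists made from the 4 libraries of S14 and S21–23 alone, in filter, scaling and spread, 1095 genes rose and 829 fell, and the medians were 2.42 and -1.65 from S17 to S24–30 and 2.01 and -1.52 from S7–11 to S17.

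Most genes that rose had not reached their highest level by S21–23. The mean was highest at S24–30 in 700 of the 1212 (57.8%) and at S21–23 in 308 (25.4%), while of all tested genes 28.7% were highest at S24–30 and 8.09% at S21–23. A further 90 were highest at S1–4 and 91 at S5–6. For 475 of them (39.2%) the S1–4 level was more than 2 times that of S14, a share close to the 37.0% of all tested genes. Genes that fell were highest at S14 in 278 cases (26.3%), at S7–11 in 272 (25.8%) and at S5–6 in 276 (26.1%), where the shares of all tested genes were 4.80%, 8.28% and 24.9%. Only 114 of them (10.8%) were highest at S1–4, against 16.8% of all tested genes, and 72 (6.82%) at S24–30. The S14 and S21–23 values chose both lists, which favours a highest level at S21–23 for rises and at S14 for falls. The shares at these time-points are therefore a description.

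**Figure D4:**
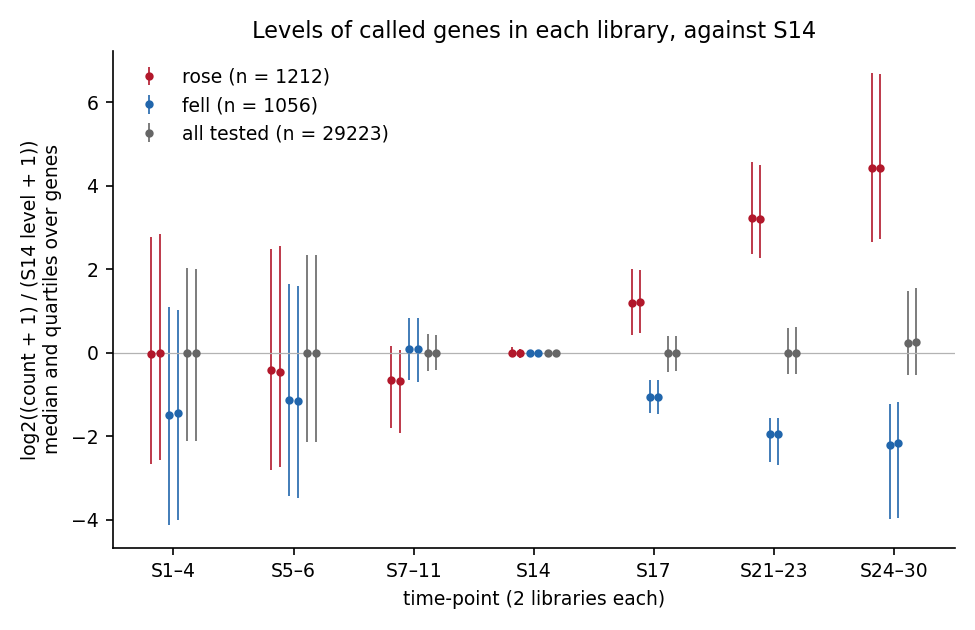
Median and quartiles over genes of the log2 ratio of each library's normalized count plus 1 to the S14 level plus 1, for each of the 14 mRNA libraries, with both replicates side by side. Genes that rose (red) were below their S14 level at S7–11 in the median and above it from S17 on, genes that fell (blue) were near it at S7–11 and below it from S17 on, and all tested genes (grey) had a median of 0 up to S21–23. The S14 and S21–23 values chose the red and blue lists.

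For 107 of the genes that rose (8.83%), both S14 libraries were at 0. A count of 0 allows up to 3 counts per library at this depth, a mean of 2.43 normalized counts. Against this floor the median rise of the 107 genes was at least 16.1-fold. With such genes at their bound, the median log2 fold change of all genes that rose was 3.04. Of the 107, 37 were also at 0 in both S17 libraries, 44 had at least 10 normalized counts at S1–4, and 16 had 0 counts in all 8 libraries from S1–4 to S14. Of all genes that rose, 57.9% had at least 10 normalized counts at S1–4, and of all tested genes 73.0%. At S24–30, 83 of the 107 were higher than at S21–23 and 1 was at 0. Conversely, 21 genes that fell (1.99%) were at 0 in both S21–23 libraries, with a median fall of at least 6.47-fold, and 15 of these had at least 10 normalized counts at S24–30.

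The gene with the highest S21–23 level among the 107, with 1 listed transcript of 3614 bases, had 2409 and 2064 normalized counts there, at least 918-fold above the floor at S14. It also had 1714 and 1980 at S17 and 513.1 and 536.2 at S1–4, and 0 in all 6 libraries of S5–6, S7–11 and S14. The next, with a transcript of 434 bases, had 0 in all 10 libraries to S17, 1671 and 1574 normalized counts at S21–23, and 657.8 and 621.5 at S24–30, a rise of at least 666-fold. Among genes that fell to 0, one with a transcript of 650 bases had 143.6 and 101.5 normalized counts at S14 and 0 in each of the 6 libraries from S17 on, a fall of at least 36.2-fold. Salmon divides reads between similar transcripts, and whether reads of such genes were assigned to a similar sequence was not tested.

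Replicates agreed less at S21–23 than at S14. The median size of the log2 difference between replicates, over genes that averaged 100 or more normalized counts, was 0.10 at S21–23, 0.07 at S14 and 0.08 at S17. The S21–23 replicate 2 library held 56 genes with at least 100 normalized counts that were at 0 in replicate 1, and the reverse held for 1 gene. At S14 the corresponding numbers were 17 and 15. These 56 genes made up 0.31% of the counts of S21–23 replicate 2. None of them was called by edgeR, although 40 had an unadjusted p below 0.05, and DESeq2 called 13. The highest had 132835 normalized counts in S21–23 replicate 2 and 67862 in S24–30 replicate 2, 0 in replicate 1 of both, 0 in all 6 libraries from S7–11 to S17, and 7621 and 8635 at S1–4 (log2 fold change from S14 of 18.9, adjusted p = 0.024). Of the 56, 38 were at 0 in both S14 libraries and 45 (80.4%, against 73.0% of all tested genes) had at least 10 normalized counts at S1–4, and 35 were higher in S24–30 replicate 2 than in S24–30 replicate 1 and 5 lower. Whether their reads were assigned to similar sequences in replicate 1 was not tested. Without S21–23 replicate 2, 1095 genes rose and 941 fell from S14 to S21–23, and without replicate 1, 1029 rose and 939 fell.

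**Figure D5:**
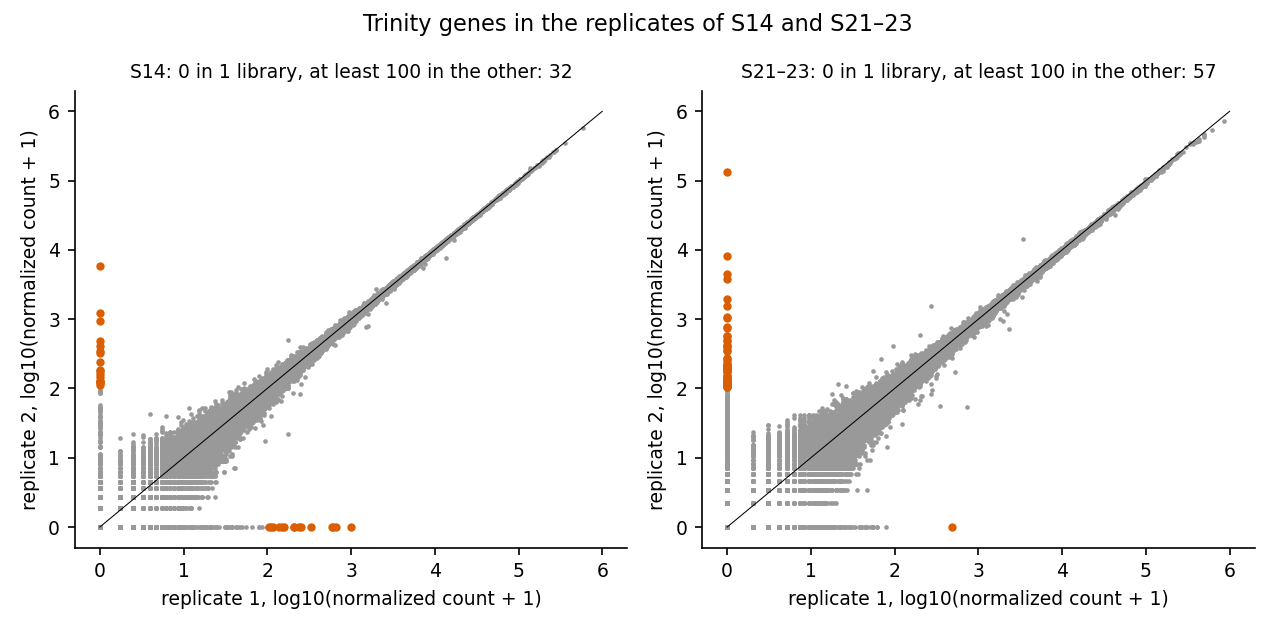
Normalized counts of every tested Trinity gene, as log10 of the count plus 1, in replicate 2 against replicate 1 of S14 (left) and S21–23 (right). Orange points are genes at 0 in 1 library and at 100 or more in the other, 32 at S14 and 57 at S21–23, and at S21–23 all but 1 of them lie on the axis of replicate 2. The line is equality.

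With edgeR, fewer single transcripts than Trinity genes were called, and the fitted spread was wider over transcripts. Of 44565 transcripts tested, 407 rose (0.913%) and 554 fell (1.24%) from S14 to S21–23, so rises were 42.4% of the calls, while DESeq2 called 2050 rises and 1436 falls (58.8% rises). Of the 961 transcripts that edgeR called, 926 were also called by DESeq2 with the same sign. The common biological coefficient of variation, the relative spread between replicates beyond counting error, was 0.70 over transcripts and 0.10 over genes. The median of the values fitted for each feature was 0.35 over transcripts and 0.13 over genes. Transcripts at 0 in replicate 1 that had 100 normalized counts or more in replicate 2 numbered 378 at S14 and 881 at S21–23, the reverse held for 418 and 437, and 6207 of those tested were at 0 in all 4 libraries. In the 18905 genes with 1 listed transcript, where both fits used the same counts, the fit over transcripts called 456 and the fit over genes 1153, and 443 were called by both in the same direction. For these genes the numbers differ through the fits and not through the counts. The transcript counts were 258 rises and 327 falls without S14 replicate 1 and 244 and 343 without S14 replicate 2. From S14 to S17, 101 transcripts rose (0.227%) and 161 fell (0.361%), and from S17 to S21–23, 160 rose (0.359%) and 142 fell (0.319%). The steps differed in 61 transcripts with the later step higher (0.137%) and 76 with it lower (0.171%). Leaving out 1 library lowered these counts by more than 1.5 times in many cases. From S14 to S17, 48 to 54 transcripts rose without either S14 library or either S17 library, and 75 and 77 fell without S14 replicate 1 and 2. From S17 to S21–23, 84 to 104 rose without any single S17 or S21–23 library, and 77 to 92 fell without any single S14 or S17 library. The steps then differed in 61 to 71 transcripts without any single S14 or S17 library.

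Of 8497 genes with at least 2 tested transcripts, 36 had at least 2 that were called. In 11 of these genes all called transcripts rose, in 22 all fell, and in 3 both directions occurred. With so few calls per gene, these numbers do not show how often isoforms moved in opposite directions. Salmon divides reads between similar transcripts, which limits any comparison of isoforms, and its part in the values below was not tested. A change in the relative use of transcripts was called in 65 genes (0.765%), of which 60 had no change called at the level of the gene, 2 rose and 3 fell. This count was 136 without S21–23 replicate 1 and 77 without replicate 2, and it was 60 and 63 without either S14 library. In one such gene, of 3 listed transcripts, the form of 3545 bases had 24.3 and 24.1 TPM at S14, 11.5 and 10.7 at S17 and 7.32 and 8.86 at S21–23, and the form of 637 bases was at 0 in both S14 libraries, at 40.1 and 34.8 TPM at S17 and at 41.2 and 44.5 at S21–23 (adjusted p of the usage test 5.3e-11). The gene itself had a log2 fold change of -0.10 ± 0.05 (SE, adjusted p = 0.11, edgeR). In another, of 7 listed transcripts, a form of 1013 bases went from 65.3 and 61.7 TPM at S14 to 137.2 and 129.1 at S21–23 and to 0 in both S24–30 libraries, while the form of 2885 bases stayed between 102.7 and 109.3 TPM in all 4 libraries of S14 and S21–23 (adjusted p of the usage test 3.2e-05).

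The leading transcript of a gene, the one with the highest TPM, was compared in 3020 genes with several listed transcripts and at least 5 TPM in each of the 4 libraries. It differed between the S14 replicates in 211 genes (6.99%) and between the S21–23 replicates in 292 (9.67%). Among the 2592 genes where both pairs of replicates had a common leader, it changed from S14 to S21–23 in 170 (6.56%). Over all 3020 genes, the leader differed between an S14 and an S21–23 library in 386 to 416 genes (12.8% to 13.8% over the 4 pairs of libraries), more than between replicates of either time-point. Of the 170 changes, 5 were in genes whose usage test passed. Where the S17 replicates also shared a leader, it was that of S21–23 in 81 genes and that of S14 in 41 of 123.

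Genes that changed had longer transcripts than the rest. The longest transcript had a median of 1686 bases in genes that rose, 1698 in genes that fell and 914 in genes not called. Of genes with a longest transcript of up to 500 bases, 1.26% rose and 1.64% fell, and of those of 4001 to 8000 bases, 6.14% rose and 4.75% fell. Counts grow with length, and the median level in these classes was 20.6 and 1313 normalized counts. Among genes with a mean of 100 to 1000 normalized counts, the medians were 2024 bases for rises, 1745 for falls and 1441 for genes not called. In that band, 1.61% of genes of up to 500 bases rose and 3.15% fell, against 8.12% and 5.47% of those of 4001 to 8000 bases. Falls made up 6.53%, 6.92% and 7.19% of the 3 classes between these, so they did not grow steadily with length. The median level in the band still climbed with length, from 197.2 normalized counts in the shortest class to 534.5 in the longest. Of the 159 genes above 8000 bases in the band, 25 rose (15.7%) and 12 fell (7.55%). Genes with 1 listed transcript rose in 3.10% and fell in 2.99% of cases, and genes with 2 rose in 6.33% and fell in 4.31%, at median levels of 42.4 and 142.3 normalized counts. Within the band of 100 to 1000 normalized counts, the shares were 4.52% and 7.38% for rises and 5.92% and 6.09% for falls.

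Called genes that the assembler had built from the same cluster of mapped reads, as the shared first number of their identifiers shows, tended to move together. There were 91 clusters with at least 2 called genes. In 85 of them all called genes moved one way, 47 upward and 38 downward. Of the 112 pairs of called genes within a cluster, 105 (93.8%) had the same direction, whereas 50.2% of all possible pairs of called genes do. Whether such genes are fragments of 1 transcription unit, neighbours or copies was not tested.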

How the data were processed

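Poly-A selected mRNA of pooled, staged *P. hawaiensis* embryos was sequenced in pairs. The authors mapped the reads to the Phaw 5.0 genome with STAR, built transcripts from them with Trinity, placed these on the genome and removed duplicates. They then predicted coding regions in these transcripts, searched them for similarity to known proteins, and quantified the annotated transcriptome with salmon. The submitters' processing notes name STAR version 2.7.2b and salmon version 0.14.1. The deposited values are expected counts (estimated reads per transcript, not normalized) and TPM (computed by salmon from these counts and the effective length). Libraries were not pooled, and the assembly and the division of reads between similar transcripts are fixed in these values. The paired small RNA libraries were not used. Both S1–4 mRNA libraries carry a label for another kind of RNA, and they were used as mRNA libraries by their titles.

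Expected counts were rounded, and summed per Trinity gene for the analysis of genes. Features that averaged 10 or more normalized counts (size factors of DESeq2 version 1.42.0) in at least 1 time-point entered 1 quasi-likelihood model of all 14 mRNA libraries in edgeR (version 4.0.16), scaled by TMM, with Benjamini-Hochberg adjustment of the p-values over all features tested. Calls required a log2 fold change of 1.5 or more in either direction and an adjusted p not above 0.001. The paper applied these cut-offs with DESeq2, to earlier pairs of time-points, so the calls made here with edgeR do not follow its procedure. Each SE is the size of the log2 fold change divided by the square root of the F statistic of its test. Use of transcripts was tested with diffSpliceDGE of edgeR (Simes p per gene). The named transcripts are, in each direction, the one with the largest fold change among those with at least 100 normalized counts in the higher time-point and a count in every S14 and S21–23 library, and the one of highest TPM. Other transcripts and genes were described without identifier, and were chosen after their values were seen. The comparison and lists were chosen with earlier results of these data known. Counts of 0 and floors cover counting error only, since PCR copies without molecular identifiers are not independent molecules. The scripts were tested on simulated data. R version 4.3.3 and Python version 3.11.15 were used.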

Additional observations from a re-analysis of the deposited data

How the results depend on the processing

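The numbers of Trinity genes that rose or fell from S14 to S21–23 stayed within 1.5 times of those given under every alternative scaling, filter, spread, tool and left-out library, and the direction of all 4 named transcripts was kept. At an adjusted p of at most 0.05, 2079 genes rose and 1661 fell from S14 to S21–23, 606 and 771 from S14 to S17, and 1395 and 538 from S17 to S21–23, and the steps of 1721 differed. The same limit gave 1432 rising and 1337 falling transcripts from S14 to S21–23, 394 and 579 from S14 to S17, 736 and 401 from S17 to S21–23, 905 whose steps differed, and 177 genes with a change of transcript usage, and rises were then 55.6% of called genes and 51.7% of called transcripts.

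With DESeq2, transcript counts were 2050 rising and 1436 falling from S14 to S21–23, 801 and 742 from S14 to S17, and 1220 and 600 from S17 to S21–23, the steps of 1483 differed, and rises were 63.4% of genes and 58.8% of transcripts. DESeq2 gave no adjusted p for 864 transcripts, which were not counted as called. The size factors of DESeq2 alone, within edgeR, gave 62.9% and 47.0% rises, and total counts gave 51.1% and 34.0%, with 623 genes and 322 transcripts falling from S14 to S17. The median log2 fold change of all tested genes was 0.019 with DESeq2 and 0.019 with its size factors, -0.067 with total counts, -0.0080 with the filter at S14 or S21–23 only, -0.012 with no filter, and 0 in the fit of 4 libraries. That filter gave a transcript median of 0.027, 58.5% rises among called genes and 104 genes with a change of usage.

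A fit of the 4 libraries of S14 and S21–23 alone called 0 transcripts as rising and 0 as falling with edgeR. The lowest adjusted p was 0.00101, 12282 transcripts had an unadjusted p below 0.05 and 6604 an adjusted p of at most 0.05. Adjusted p of the named transcripts was then 0.0011 to 0.0026. The same fit over genes called 1261 rises and 942 falls (57.2% rises). With the 6 libraries of S14, S17 and S21–23, transcript counts were 64 rising and 29 falling to S17, 33 and 86 from S17, and 43 with differing steps. Fewer libraries leave fewer degrees of freedom for the spread.

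With 1 library left out, transcript counts ranged from 244 to 286 rising and 327 to 418 falling from S14 to S21–23, 48 to 73 and 75 to 157 from S14 to S17, and 84 to 138 and 77 to 115 from S17 to S21–23, with 61 to 115 whose steps differed. The steps of 389 to 621 genes differed, 60 to 136 genes changed usage, rises were 49.97% to 53.8% of called genes, and the median of all genes was -0.045 to 0. A lone library was then taken to vary like those of the other groups. Over all settings, lists from the 4 libraries alone (added after seeing the data) included, the medians of genes that rose ranged from 2.42 to 3.50 (S17 to S24–30) and from 1.23 to 2.05 (S7–11 to S17), and those of genes that fell from -1.65 to -0.86 and from -1.69 to -1.23. The cause of these differences was not tested.

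Replicates of S14 and S21–23 that share a number did not deviate together (correlation of replicate differences 0.01 over genes and -0.02 over transcripts), so no pairing by number was seen. A correlation over all features is open to counting error, so it cannot exclude a shared brood or batch. Between S21–23 and S24–30 the correlation was 0.16 and 0.14, and in no other pair of time-points did it exceed 0.033 in size. A replicate block gave 1163 rising and 1018 falling genes, 318 and 455 transcripts, and 66 transcripts rising from S14 to S17. Group sizes of 2 allow no check for a single deviating library.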
